A study of Homo sapiens with 40 samples.

Results

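The 9 Polycomb complex genes EZH2, EZH1, EED, SUZ12, RNF2, BMI1, CBX2, CBX7 and CBX8, out of 19676 protein-coding genes, were examined for acetylation of histone H3 at lysine 27 (H3K27ac) and for CTCF binding in EndoC-βH3 cells before and after senescence. They were taken as a list of subunits and not by a rule on their values, though earlier results of these data were known. A peak was assigned to a gene if it lay within 2 kb of a start site of one of its coding transcripts (its promoter), in its body, or within 100 kb with that gene's start site as the nearest. This gave 21 of 51489 H3K27ac peaks and 20 of 51457 CTCF peaks, together with 5 of 14886 enhancers listed for non-senescent cells, 6 of 13076 listed for senescent cells and 3 of 2435 regions of senescence-specific binding of the retinoblastoma protein Rb. All positions are in hg38.

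EndoC-βH3 is 1 beta-like cell line of fetal origin that carries a CreER recombinase. Its growth depends on 2 transgenes, one for telomerase (hTERT) and one for the viral large T antigen of SV40, a blocker of the tumour suppressors Rb and p53. Senescent cells had received 4-hydroxytamoxifen (4-OHT) for 3 weeks, which activates CreER and excises both transgenes. Non-senescent cells had not received it and kept both transgenes, so that senescence, loss of the transgenes and exposure to 4-OHT cannot be told apart. H3K27ac marks active promoters and enhancers, and CTCF binds DNA and anchors chromatin loops. Each was profiled by ChIP-seq in 3 libraries per state, and H3K4me1 and Rb in 2 libraries per state, with an input for every library, 40 in all. Whether replicates came from separate cultures is not stated, so the errors may measure technical spread alone.

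Polycomb proteins silence genes by modifying histones. Polycomb repressive complex 2 (PRC2) methylates histone H3 at lysine 27 through EZH2 or EZH1, which need the subunits EED and SUZ12. PRC1 ubiquitinates histone H2A through RNF2 (RING1B) or its paralog, with a PCGF partner such as BMI1, and its CBX subunits bind the methyl group laid down by PRC2. H3K27ac and H3K27 methylation cannot occupy the same residue. EZH2 is abundant in proliferating cells and EZH1 in resting ones, and in the pancreas EZH2 and BMI1 are known for repressing the INK4A locus, which encodes p16, in young beta cells.

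The direction of the scale was set by known genes. In log2 fold change of H3K27ac, senescent over non-senescent, the promoter of the proliferation gene MKI67 stood at -2.29 and that of the cell-cycle inhibitor gene CDKN1A at 2.50. All 14 beta-cell markers examined, INS and PDX1 among them, carried a promoter H3K27ac peak. So did 5 of 11 markers of other pancreatic cells (SST and KRT19 among them), and the other 6, including GCG and PTPRC, did not. The tables give 1 comparison per peak and no values per library, so each level below is a mean over the 6 libraries of normalized read counts, and the spread among libraries enters through the deposited standard error (SE) of the log2 fold change. A peak is called lost or gained if it changed more than 1.5-fold with an adjusted p under 0.05 (H3K27ac) or 0.2 (CTCF) in the deposited tables. Size factors hold the typical peak at no change, so a rise or fall of a mark throughout the genome would not be seen.

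The promoter sequences of 4 genes are shown because their H3K27ac differed in direction or size in senescent cells. EZH2, whose promoter lost H3K27ac, is set beside its paralog EZH1 and its partner SUZ12, and BMI1 is the gene whose promoter gained it. They come from RefSeq (GRCh38.p14), read 5′ to 3′ toward the start site. Capitals mark matches on either strand to 3 patterns found at cell-cycle promoters. The first, TTTNNCGC, is an E2F site. The second is the cell-cycle homology region (CHR), with the letters TTTGAA. The third is the box spelled CCAAT.
EZH2: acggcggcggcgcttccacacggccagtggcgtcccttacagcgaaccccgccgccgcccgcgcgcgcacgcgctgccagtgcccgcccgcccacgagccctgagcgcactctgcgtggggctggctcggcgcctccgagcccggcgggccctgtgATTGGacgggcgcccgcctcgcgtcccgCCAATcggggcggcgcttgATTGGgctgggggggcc
EZH1: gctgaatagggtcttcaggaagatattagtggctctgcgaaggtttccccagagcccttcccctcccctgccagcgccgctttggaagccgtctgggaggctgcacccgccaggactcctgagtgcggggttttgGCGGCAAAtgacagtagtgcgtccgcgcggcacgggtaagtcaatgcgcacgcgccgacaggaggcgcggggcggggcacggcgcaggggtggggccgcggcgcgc
SUZ12: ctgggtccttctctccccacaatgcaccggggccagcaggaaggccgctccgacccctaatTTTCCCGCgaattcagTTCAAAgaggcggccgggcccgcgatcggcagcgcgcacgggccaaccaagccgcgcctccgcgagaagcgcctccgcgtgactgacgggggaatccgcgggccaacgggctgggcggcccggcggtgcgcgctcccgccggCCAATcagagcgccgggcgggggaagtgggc
BMI1: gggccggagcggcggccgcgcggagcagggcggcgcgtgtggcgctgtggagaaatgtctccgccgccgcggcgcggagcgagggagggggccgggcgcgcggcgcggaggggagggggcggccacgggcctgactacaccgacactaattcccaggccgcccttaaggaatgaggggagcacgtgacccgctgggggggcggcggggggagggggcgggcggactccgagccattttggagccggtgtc
They lie at chr7:148884322-148884541 (minus strand), chr17:42745050-42745290 (minus), chr17:31936757-31937006 (plus) and chr10:22320849-22321098 (plus), each inside the promoter H3K27ac peak of its gene, and stop short of any annotated start of that gene. RefSeq entries were used for 7 of the 9 genes, and CBX2 and CBX8 have none here.

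In the 250 bases before the RefSeq start site, the EZH2 promoter held 4 CCAAT matches, of which 3 fall in the stretch printed. It held no E2F or CHR match. At least 1 CCAAT match was present in 32.0% of 35116 RefSeq promoters of the same length, and 4 or more in 0.874%. The cutoff of 4 is the count of EZH2 itself, so this share is not a test. SUZ12 held 1 match to each of the 3 patterns, with its E2F match between 189 and 182 bases before the start. EZH1 held 1 E2F match and no other. The E2F pattern was found in 5.92% of all promoters and the CHR pattern in 13.3%. BMI1 and RNF2 held no match to any of the 3, and EED and CBX7 held 1 CCAAT match each. BMI1 had 35 CpG dinucleotides in this window and EZH2 had 38, against a median of 11 over all promoters. These matches are letters in a window and do not show that a factor binds there.

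At the promoter peak with the most counts of each gene, H3K27ac was lost at EZH2 and CBX2 and gained at BMI1. EZH1, EED, SUZ12, RNF2, CBX7 and CBX8 were not called at that peak. A weaker promoter peak of EED, with a mean of 52.1 counts, was lost. With each gene taken at its promoter peak with the most counts, 2 of the 9 genes were lost and 1 was gained. The same rule called 8.94% of 13059 genes lost and 3.15% gained. The median log2 fold change was -0.35 over the 9 genes and 0.038 over all genes, and 6 of the 9 values were below 0. With 9 genes these counts describe the list and test nothing about it.

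**Figure D1:**
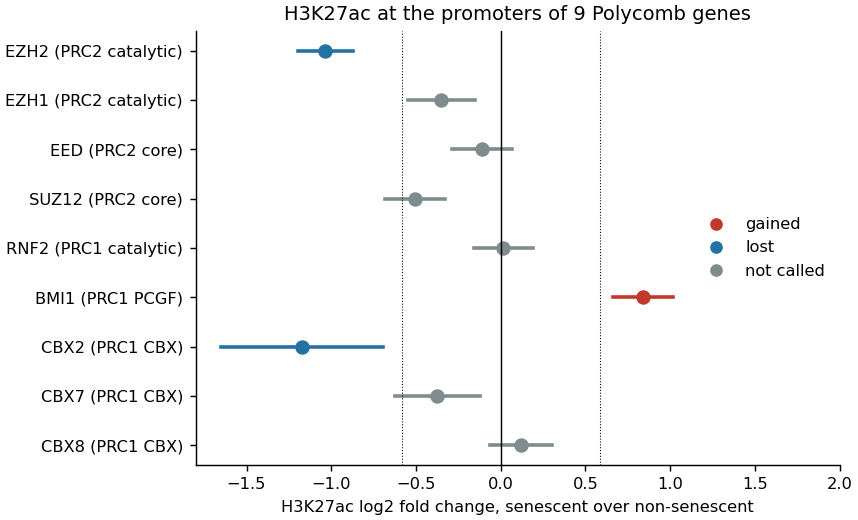
Each point is the log2 fold change of H3K27ac (senescent over non-senescent) at the promoter peak with the most counts of each gene, and the bar is its 95% interval from the deposited standard error; dotted lines mark a 1.5-fold change. EZH2 and CBX2 lie to the left at -1.03 and -1.17, BMI1 lies to the right at 0.84, and the other 6 genes lie between -0.51 and 0.12.

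**Figure D2:**
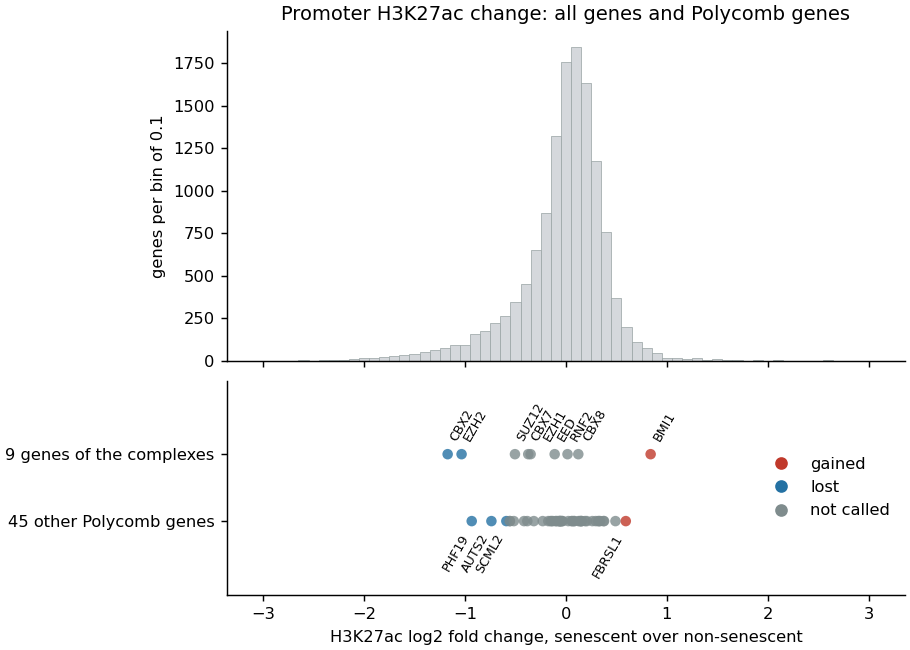
The upper panel counts all 13059 genes by promoter H3K27ac log2 fold change, and the lower panel places the 9 genes and 45 other Polycomb genes on the same axis, coloured by call. BMI1 lies in the right tail, EZH2 and CBX2 lie in the left tail, and most other Polycomb genes lie near the centre.

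Among the PRC2 genes, EZH2, the methyltransferase of proliferating cells, had the lowest value. Its promoter peak (chromosome 7, 148882604 to 148885969, covering exon 1) had a mean of 876 normalized counts, or 260 per kb. From this mean and the fold change, the level was about 1177 counts in non-senescent and 575 in senescent cells. The log2 fold change was -1.03 (SE 0.082, adjusted p = 5.28e-34), a 2.05-fold loss, and 3.58% of genes had a lower value. The loss also passed a test against a fold change of 1.5 (adjusted p = 3.51e-06). A further peak 55691 bp upstream (chromosome 7, 148939982 to 148942835) stood at -0.46 (SE 0.11, adjusted p = 0.000116), which is under 1.5-fold, and was not called.

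EZH1, the paralog that serves in resting cells, had a smaller difference. Its promoter peak (chromosome 17, 42743480 to 42745577, covering exon 1) had a mean of 477 counts, or 228 per kb, about 535 in non-senescent and 420 in senescent cells. This gave a log2 fold change of -0.35 (SE 0.10, adjusted p = 0.0023), a 1.27-fold difference that was not called. The difference, EZH2 minus EZH1, was -0.68 (95% interval -0.94 to -0.43). For this and the 6 other pairs compared, the interval takes the deposited errors as independent, and no p was computed.

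SUZ12, which stabilizes the catalytic subunit, was close to the fold threshold. Its promoter peak (chromosome 17, 31935965 to 31939295, covering exon 1) had a mean of 687 counts, 206 per kb, about 806 in non-senescent and 568 in senescent cells. Its log2 fold change was -0.51 (SE 0.091, adjusted p = 2.98e-07), a 1.42-fold difference, and was not called. The difference of EZH2 from SUZ12 was -0.53 (95% interval -0.77 to -0.29). At the other end of the gene, a peak over exon 16, the last exon (chromosome 17, 32000380 to 32002486), was gained with a log2 fold change of 0.65 (SE 0.18, adjusted p = 0.000919). The mean there was 143 counts, about 111 in non-senescent and 175 in senescent cells. This peak lay 63313 bp from the SUZ12 start site and 4897 bp from a start site of the neighbouring gene LRRC37B. With the trend on GC content removed it stood at 0.55 and was no longer called.

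EED, which binds the methyl mark and activates the enzyme, was not called at its main promoter. This peak (chromosome 11, 86243465 to 86246312, covering exon 1 of the canonical transcript) had the highest level per length among the promoters of the 9 genes, 323 counts per kb with a mean of 919 counts. The log2 fold change was -0.11 (SE 0.091, 95% interval -0.29 to 0.066, adjusted p = 0.34), and -0.058 (adjusted p = 0.642) with the GC trend removed. A peak of 52.1 counts inside an intron (chromosome 11, 86274599 to 86275548), 584 bp from the start of a shorter transcript, was lost with a log2 fold change of -0.77 (SE 0.30, adjusted p = 0.0277). Another promoter peak of 50.7 counts at the start of a longer transcript stood at -0.51 with an SE of 0.56. The difference of EZH2 from EED at their main promoters was -0.92 (95% interval -1.16 to -0.68).

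Among the PRC1 genes, BMI1, a PCGF subunit and known repressor of INK4A, gained H3K27ac. Its promoter peak (chromosome 10, 22319636 to 22323004, covering exon 1) had a mean of 650 counts, 193 per kb, about 466 in non-senescent and 834 in senescent cells. The log2 fold change was 0.84 (SE 0.090, adjusted p = 6.34e-19), a 1.79-fold gain, and 98.9% of genes had a lower value. The peak also lay within 2 kb of a coding start site of COMMD3, so its reads cannot be given to 1 gene. It did not pass the test against a fold change of 1.5 (adjusted p = 0.0916). A neighbouring promoter peak over exons 2 and 3 (chromosome 10, 22324186 to 22327184) stood at 0.46 (SE 0.12, adjusted p = 0.000946) and was not called.

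RNF2, the catalytic partner of BMI1, differed from it. Its promoter peak (chromosome 1, 185044238 to 185047580, covering exon 1) had a mean of 640 counts, 191 per kb, about 636 in non-senescent and 643 in senescent cells. Its log2 fold change was 0.016 (SE 0.088, 95% interval -0.16 to 0.19). BMI1 was higher than RNF2 by 0.82 (95% interval 0.58 to 1.07). Inside the RNF2 body, a peak over exons 3 and 4 (chromosome 1, 185090375 to 185093189) was lost, from about 709 to 367 counts, with a log2 fold change of -0.95 (SE 0.098, adjusted p = 1.64e-20). It lay 44279 bp from the RNF2 start site, the nearest one, and passed the test against a fold change of 1.5 (adjusted p = 0.0058).

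The CBX genes, readers of H3K27 methylation, did not share 1 pattern. CBX2, the CBX subunit known for compacting chromatin, had the lowest level, 51.7 counts per kb and a mean of 75.9 counts over its promoter peak (chromosome 17, 79777476 to 79778943, covering exons 1 and 2). The level was about 105 counts in non-senescent and 46.6 in senescent cells, a log2 fold change of -1.17 (SE 0.24, 95% interval -1.65 to -0.69, adjusted p = 1.22e-05) and a 2.25-fold loss. Only 6.88% of genes had fewer counts, and the CBX2 loss did not pass the test against a fold change of 1.5 (adjusted p = 0.243). The peak had a GC content of 73.5%, and with the GC trend removed its value was -0.80 and the call was kept.

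CBX7, a repressor of INK4A in other cells, had a promoter peak (chromosome 22, 39151668 to 39153940) with a mean of 289 counts, 127 per kb, and a log2 fold change of -0.37 (SE 0.13, adjusted p = 0.0108), not called. With the GC trend removed it stood at -0.16 (adjusted p = 0.315). CBX8, another CBX subunit of PRC1, had a promoter peak (chromosome 17, 79795886 to 79798318) with a mean of 566 counts, 233 per kb, and a log2 fold change of 0.12 (SE 0.093, adjusted p = 0.306). With the GC trend removed it stood at 0.35 (adjusted p = 0.000719), still not called. In log2 fold change, CBX2 minus CBX8 was -1.29 (95% interval -1.81 to -0.78) and CBX2 minus CBX7 was -0.80 (95% interval -1.34 to -0.26). CBX7 minus CBX8 was -0.50 (95% interval -0.80 to -0.19).

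In all, 4 of the 21 H3K27ac peaks were lost and 2 were gained, beside 13.1% lost and 9.47% gained over all H3K27ac peaks. Of the 12 promoter peaks 3 were lost and 1 was gained, beside 9.81% and 4.53% of all promoter peaks. The shares over 21 peaks were near those over all peaks. Of the other 15 peaks, 7 had an adjusted p under 0.05 with less than a 1.5-fold difference.

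**Figure D3:**
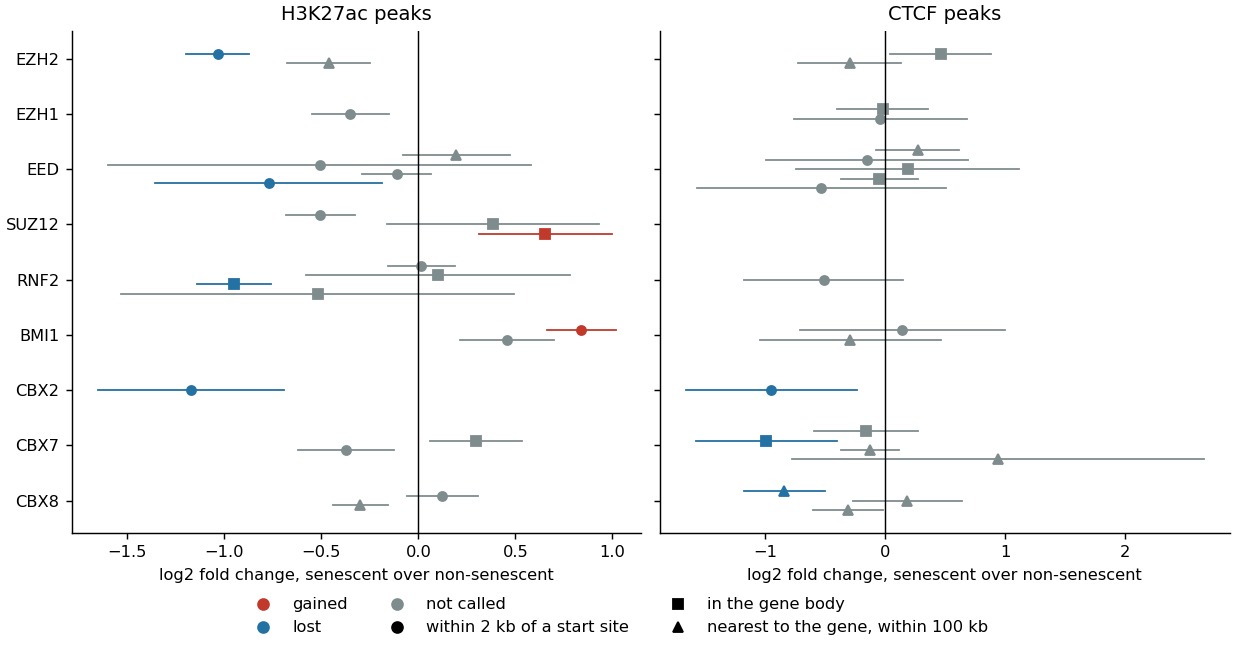
Each point is a peak of the 9 genes, with its log2 fold change (senescent over non-senescent) and 95% interval, H3K27ac on the left and CTCF on the right; the shape gives its position relative to the gene and the colour its call. Of 21 H3K27ac peaks 4 are lost and 2 gained, and of 20 CTCF peaks 3 are lost and 0 gained.

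CTCF was lost at 3 of the 20 peaks, at or beside the CBX genes, and gained at 0 (DESeq2 values of the authors' deposited table). At an unadjusted p under 0.05, 1 peak was higher, in an EZH2 intron at 0.46 (SE 0.22), and 4 were lower. Over the 39485 CTCF peaks with an adjusted p, 4.28% were lost and 2.99% gained, and over promoter peaks 5.71% and 0.63%. An adjusted p was given for 18 of the 20. SUZ12 had no CTCF peak, and EZH2, CBX7 and CBX8 had none at their promoters.

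The CTCF peak at the CBX2 promoter (chromosome 17, 79777327 to 79777937) lay 211 bp upstream of the start site and overlapped the lost H3K27ac peak. Its mean was 36.1 counts, about 47.5 in non-senescent and 24.6 in senescent cells. Its log2 fold change was -0.95 (SE 0.36, adjusted p = 0.119). A second CTCF peak (chromosome 17, 79789286 to 79790784), between the ends of CBX2 and CBX8 and 6293 bp from a CBX8 start site, fell from about 268 to 150 counts, with a log2 fold change of -0.84 (SE 0.17, adjusted p = 0.000514). Another, in an intron of CBX7 (chromosome 22, 39135024 to 39135720), fell from about 86.9 to 43.8 counts, with a log2 fold change of -0.99 (SE 0.30, adjusted p = 0.0373). With the GC trend removed, those at CBX2 and beside CBX8 stood at -0.66 and -0.51 and were no longer called, and the one in CBX7 stood at -0.83 and was.

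The 12-base CTCF core motif was found on either strand in 15015 of all CTCF peaks, 29.2%, and in 6 of the 20 peaks here. Of the 3 lost peaks, those at CBX8 and CBX7 held 1 match each, shown with the core in capitals and 9 bases on either side.
CBX8: acgccgccaCCTGCAGAGGGCgcgcgcgtc
CBX7: accccgaccCCTCCAGGGGGCtcctgggct
They lie on the plus strand at chr17:79790027-79790056 and chr22:39135290-39135319, with the core at 7 and -67 bp from the peak centre. The peak at the CBX2 promoter held no match to this pattern. The study counted only CTCF peaks with a motif, and whether its filter would keep this peak was not tested.

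The promoter CTCF peaks of the other genes were weak and not called. Those with the most counts of each gene had means of 33.4 counts at EZH1, 23.4 at EED, 47.1 at RNF2 and 27.2 at BMI1. The log2 fold changes were -0.042 (SE 0.37), -0.15 (SE 0.43), -0.51 (SE 0.34) and 0.14 (SE 0.44), in that order. EED had a further promoter CTCF peak of 17.4 counts (chromosome 11, 86275854 to 86276238), at -0.53 (SE 0.53), for which no adjusted p was given. At this depth their 95% intervals span more than 1 log2 unit, from -1.18 to 0.15 at RNF2 for example, so that a 1.5-fold loss was not detectable. Of the 20 CTCF peaks, 9 overlapped an H3K27ac peak, and 1 of these, at CBX2, was lost for both.

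CBX2 and CBX8 are neighbours on chromosome 17 and point toward each other. From 3 kb before CBX2 to 15 kb past CBX8, 1 of 3 H3K27ac peaks and 2 of 4 CTCF peaks were lost. Over all H3K27ac peaks 13.1% were lost, and over all CTCF peaks with an adjusted p 4.28% were. The H3K27ac loss was at CBX2, whereas the CBX8 promoter stood at 0.12 and was not called. One lost CTCF peak lay at the CBX2 promoter and the other between the 3′ ends of both genes. With the GC trend removed they stood at -0.66 and -0.51, and neither was called. The other 2 CTCF peaks, near or inside the enhancer region upstream of CBX8, stood at 0.19 (SE 0.23) and -0.31 (SE 0.15) and were not called.

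**Figure D4:**
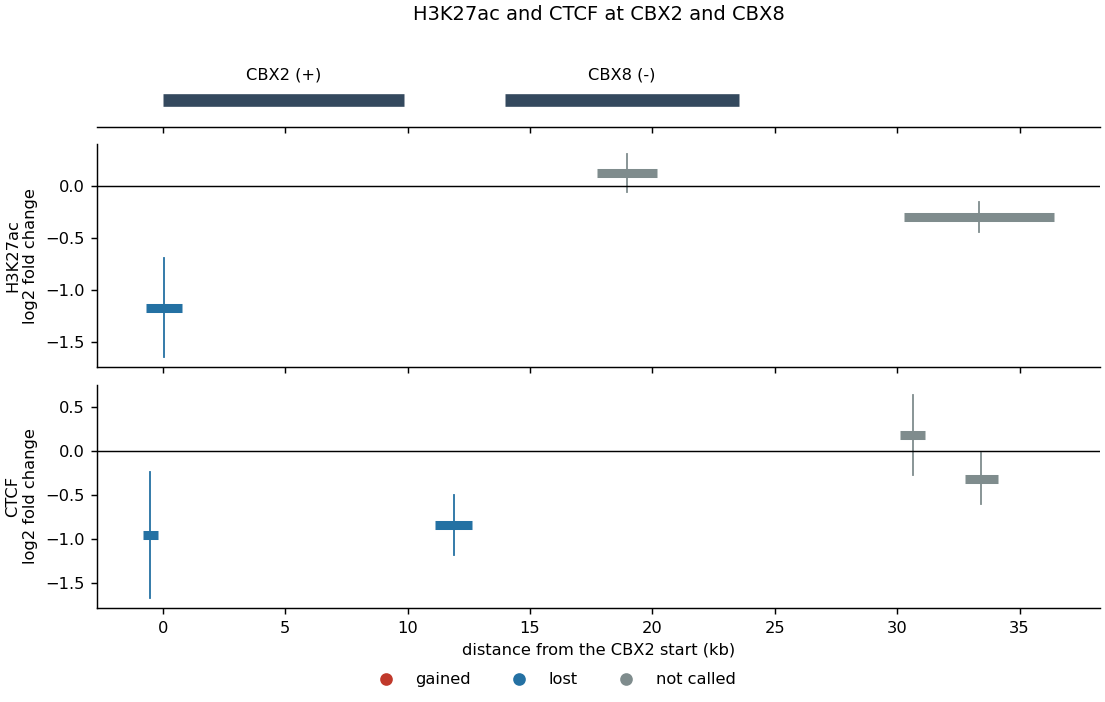
Genes (top, with strand), H3K27ac peaks (middle) and CTCF peaks (bottom) are drawn to scale by distance from the CBX2 start in kb; horizontal bars give each peak's extent at its log2 fold change (senescent over non-senescent), and vertical lines its 95% interval. H3K27ac was lost at CBX2 in this stretch, at -1.17, and CTCF was lost at 2 peaks, at -0.95 and -0.84. Neither CTCF peak was called with the GC trend removed.

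Enhancers listed by the authors from H3K27ac and H3K4me1 were found near 6 of the genes. All 5 regions of the non-senescent list overlapped a region of the senescent list, as 70.6% of the whole list did. They lay 54624 bp upstream of EED, over exons 3 and 4 of RNF2, at the second BMI1 promoter peak, in an intron of CBX7, and in a 5980 bp region 7046 bp upstream of CBX8. Of the 6 regions of the senescent list, 5 overlapped the other list, against 79.5% of that whole list. The remaining region (chromosome 17, 32000380 to 32002270) covered the gained H3K27ac peak at the last exon of SUZ12. The RNF2 region was listed in both states although its H3K27ac peak was lost. The H3K27ac peak of the CBX8 region had a mean of 2142 counts, or 349 per kb, the most of the 21, and stood at -0.30 (SE 0.073, adjusted p = 0.0002), not called, and at -0.095 (adjusted p = 0.303) with the GC trend removed. H3K27ac values and both lists come from the same libraries and are not independent.

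Regions of senescence-specific Rb binding, given as positions without values, were found at 2 of the genes. One of 250 bp lay in the first intron of RNF2 (chromosome 1, 185045684 to 185045933), 126 bp from a start site and inside its promoter H3K27ac peak. RNF2 was the 1 gene of the 9 with an Rb region at a promoter, compared with 308 of 19676 coding genes, 1.57%. The other 2 (chromosome 17, 79809613 to 79810060 and 79813186 to 79813643) lay inside the enhancer region upstream of CBX8. No Rb region was listed at the EZH2 or CBX2 promoter. The authors called the list from senescent against non-senescent reads at an unadjusted p threshold. Rb binding shared by both states would therefore not be listed.

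Of 48 other Polycomb genes, 45 had a promoter H3K27ac peak, and EPOP, BCORL1 and SFMBT2 had none. Of the 45, 3 were lost, 1 was gained and 41 were not called, beside 8.94% lost and 3.15% gained over 13059 genes. Their median log2 fold change was -0.042, and that of all genes was 0.038. These counts describe the list and test nothing about it. The largest loss was at PHF19, whose product guides PRC2 to chromatin (chromosome 9, 120874723 to 120879149), with a log2 fold change of -0.93 (SE 0.076, adjusted p = 1.65e-32). AUTS2, part of variant PRC1, stood at -0.74 (SE 0.15, adjusted p = 1.04e-05) and SCML2, a PRC1 partner, at -0.59 (SE 0.16, adjusted p = 0.000689). The gain was at FBRSL1, related to AUTS2, with 0.59 (SE 0.070, adjusted p = 6.03e-16), just past the fold threshold. With the GC trend removed, PHF19 and FBRSL1 kept their calls, AUTS2 at -0.46 and SCML2 at -0.44 lost theirs, and FBRS, which also interacts with variant PRC1, was gained at 0.59.

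The remaining groups held no called promoter. The PRC2 core subunits RBBP4 and RBBP7 stood at 0.14 and 0.19. RING1, the paralog of RNF2, stood at -0.23 (SE 0.11). The 5 PCGF genes ranged from -0.55 to 0.26, the 3 PHC genes from -0.063 to 0.38, and the 8 genes of the PR-DUB complex, which removes ubiquitin from H2A, from -0.38 to 0.37. The H3K27 demethylase genes KDM6A and KDM6B stood at -0.055 and 0.15.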

How the data were processed

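H3K27ac and CTCF ChIP-seq of senescent and non-senescent cells was used, with groups taken from the antibody and treatment labels. According to the methods, the authors cleaned reads with Trim Galore, mapped them to hg38 by Bowtie2, called H3K27ac peaks with HOMER and CTCF and Rb peaks with MACS2, and compared read counts in peaks with DESeq2. Tool versions and how replicates were combined into peak lists are not given in the sources used here. The deposited signal is the mean count over libraries divided by size factors. Fold changes were deposited as log2 of senescent over non-senescent, with their errors. The deposited Wald score is the quotient of both, and the adjusted p-value was deposited by the authors (Benjamini-Hochberg). Unadjusted p-values were computed from the score. An adjusted p was missing for 11972 CTCF peaks, which stayed uncalled. The authors filtered CTCF peaks for the motif, but the deposited peaks are not limited to that set. At the thresholds used here 1690 of them were lost and 1180 gained. Both counts exceed those the paper reports for sites with the motif. The enhancer and Rb lists hold positions alone. The calling thresholds are those of the study, but its motif requirement for CTCF peaks was not applied.

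A test on counts per library was planned where such counts were given; the authors' comparison was used in its place, without refitting. The depth per library is therefore unknown, and the median standard error was 0.19 for H3K27ac and 0.29 for CTCF peaks. Start sites were those of coding transcripts in GENCODE 44, whose chromosome names and lengths matched. Intervals are 95% normal intervals from the deposited standard error. Levels per state were derived from the mean and the fold change. Regions overlapped by at least 1 bp. Calls and assignment were tested on simulated data as a check of the code. The simulated noise was drawn from the deposited errors, so those errors were not tested. The text names all 9 genes, their called peaks, their main promoter peaks and listed regions, and other Polycomb genes with a called promoter, with further genes given as examples after their values were seen. The genes and lists were chosen with earlier results of these data known, and some genes of the lists are not reported here by name. Python 3.11.15, pandas 2.3.3, scipy 1.17.1, statsmodels 0.14.6 (lowess on GC content, fraction 0.3) and pysam 0.24.0 were used.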

Additional observations from a re-analysis of the deposited data

How the results depend on the processing

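No paired analysis was possible because the tables hold no values per library, and leaving out single replicates was not run for the same reason. Counts are given here as lost then gained, with 3 and 1 for promoter H3K27ac peaks, 4 and 2 for all H3K27ac peaks, 3 and 1 for other Polycomb promoters, and 3 and 0 for CTCF as reported. With a fold change above 2, 2 of all H3K27ac peaks stayed lost (EZH2 and CBX2 promoters), 0 were gained, and the other Polycomb promoters and CTCF peaks had 0 in either direction. With no fold threshold, promoter peaks had 6 and 2, all H3K27ac peaks 9 and 4, and other Polycomb promoters 9 and 11. A test against a fold change of 1.5 left 1 and 0 promoter peaks (EZH2), 2 and 0 of all H3K27ac peaks (EZH2 and the RNF2 body), 1 and 0 other Polycomb promoters (PHF19) and 0 CTCF peaks. With the GC trend removed, 1 H3K27ac peak of the 9 genes was gained, other Polycomb promoters had 1 and 2, and 1 CTCF peak was lost. Taking canonical start sites alone, or the peak nearest to them, left 0 other Polycomb promoters gained, since FBRSL1 was then represented by another peak, at 0.47. With canonical start sites alone, promoter peaks of the 9 genes had 2 and 1, as the lost EED intron peak no longer counted as a promoter peak. Averaged over its 2 promoter peaks, BMI1 stood at 0.71. Of all recomputed values, 66 stayed within 1.5 times the reported count or within 1 standard error of the reported value, and 26 did not. Some of the 66 could not have moved, such as an average over promoter peaks for a gene with only 1. CTCF peaks at these promoters had 50 counts or fewer, which limits what can be detected there.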
